A study of Mus musculus with 22 samples.

Results

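The 10 genes described here are Acer2, Acer3, Asah1, Asah2, Sphk1, Sphk2, Sgpl1, Smpd1, Cers2 and S1pr1, which make and break down ceramide or carry its signal onward. They were taken as the probe sets whose platform symbol is one of these names, out of 18704 genes with 1 symbol, and each had at least 1 probe set. Of the 10, 9 were among the 9880 genes bright enough to be tested, meaning above the median of their array in at least 3 arrays. The genes were chosen by their log2 differences between celastrol and vehicle at 6 h, 1 day and 4 days, which were already known when the set was put together. Those differences are therefore given as a description with their standard errors (SE) and with no test. Acer2 had the largest difference, 1.30 times the vehicle level on the average of 3 times by its brighter probe set (log2 difference 0.38). Its second, dim probe set gave -0.067 and the mean of both gave 0.16, and the other 9 lay within 0.07 of 0 on the log2 scale.

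The messenger RNA came from the hypothalamus of lean male C57BL/6J mice, 8 weeks old, that had eaten normal chow for 2 weeks. Celastrol, a triterpenoid from the thunder god vine studied as a leptin sensitizer, or its solvent dimethyl sulfoxide (DMSO, 25 µl a day) was injected into the peritoneum for 6 h, 1 day or 4 days. Each DMSO group held 4 arrays, while celastrol groups held 4 (6 h), 3 (1 day) and 3 (4 days) arrays, all labelled as biological replicates. The labels state 250 µg of celastrol per kg for the 6 h group and an injected volume of 100 µl for the later groups; the later dose is not stated in the labels used here. The labels name no transgene or deletion in any group. The tissue was whole hypothalamus, so a change in the number of cells of a type and a change of RNA per cell cannot be told apart.

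Ceramide is the central lipid of sphingolipid metabolism. Ceramide synthases build it, sphingomyelinases release it from sphingomyelin, and ceramidases cut it into a fatty acid and sphingosine. Sphingosine kinases then make sphingosine 1-phosphate, which signals through cell surface receptors, above all on blood vessels and on glia, until a lyase or phosphatases remove it. In the hypothalamus, ceramide has been tied to the control of feeding and body weight and to the loss of leptin and insulin sensitivity.

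Acer2 encodes the alkaline ceramidase of the Golgi, an enzyme known to respond to cell stress. The first 184 bases of its promoter window, which end just before the first annotated base of the gene, are shown because Acer2 was the member with the largest difference under celastrol. The sequence is that of RefSeq on the plus strand of mouse build GRCm38.p6, chr4:86874164-86874347, and capitals mark matches to the NF-kB consensus.

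Acer2 promoter: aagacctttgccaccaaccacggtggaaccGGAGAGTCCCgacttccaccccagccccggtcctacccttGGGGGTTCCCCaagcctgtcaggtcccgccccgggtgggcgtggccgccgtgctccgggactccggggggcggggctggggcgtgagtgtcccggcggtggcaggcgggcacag

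Both strands of windows from 250 bases before to 50 bases after each start were searched for 8 short motifs. The Acer2 window held 3 matches to the NF-kB consensus, 1 on the minus strand from base 31 and 2 overlapping on the plus strand from bases 71 and 72. At least 1 such match occurred in 8.46% of 32851 mouse promoter windows and in 14.7% of the 2200 windows within 3 percentage points of its GC content of 73.0%. Windows with 3 or more matches made up 0.186% of all and 0.455% of those of similar GC content. That cut is the count found in Acer2 itself, and of the 8 motifs only this motif was examined in this way. The 2 overlapping matches also form a single stretch of letters, so nothing is read from these shares. The Acer2 window also held 2 GC boxes (GGGCGG), a motif present in 35.7% of windows. It held no match to the STAT motif TTCNNNGAA (in 8.30% of windows), to the cyclic AMP response element TGACGTCA (1.79%), to the E-box CACGTG (7.15%), to the p53 half-site (8.36%), to TATAAA (13.6%) or to CCAAT (37.4%). Of the 8 members with a listed window (15 windows in all), Sphk1 was the other one with an NF-kB match. Sphk1 had several windows, some of them overlapping, so it had more places for a match than Acer2. A match describes letters and is no measure of binding.

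Acer2 (probe set 10505779) sat at the middle of the intensity range, with a median percentile of 49.5 on the arrays. At 6 h its log2 intensity was 8.50, 8.45, 8.64 and 8.36 in DMSO arrays and 8.33, 8.82, 9.00 and 8.77 in celastrol arrays. The groups overlapped at this time, since celastrol replicate 1 was the lowest of all 8 arrays while the other 3 celastrol arrays were above every DMSO array. At 1 day the values were 8.70, 8.26, 8.56 and 8.53 with DMSO and 8.91, 8.82 and 8.81 with celastrol. At 4 days they were 8.37, 8.46, 8.39 and 8.24 with DMSO and 8.97, 8.97 and 8.83 with celastrol. At both later times every celastrol array was above every DMSO array.

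The difference between celastrol and DMSO in the log2 level of Acer2 was 0.24 at 6 h (SE 0.10, 1.18-fold), 0.34 at 1 day (SE 0.11, 1.26-fold) and 0.56 at 4 days (SE 0.11, 1.47-fold). The equally weighted average was 0.38 (SE 0.062), and 9 of the 10 celastrol arrays exceeded the mean of their own DMSO group, as they did (9 or 10 of 10) for 3.02% of all genes tested. Among the 9880 genes, ordered by the size of a higher log2 level with celastrol, Acer2 stood at place 21 at 6 h, 10 at 1 day, 6 at 4 days and 4 on the average. The 6 h difference depended on single arrays: it was 0.15 without celastrol replicate 3 and 0.37 without celastrol replicate 1. At 4 days it stayed between 0.52 and 0.61 when each of the 22 arrays was left out in turn. Acer2 passed the level filter through its celastrol arrays, as it was above the array median in 11 arrays, only 2 of them DMSO arrays.

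**Figure D1:**
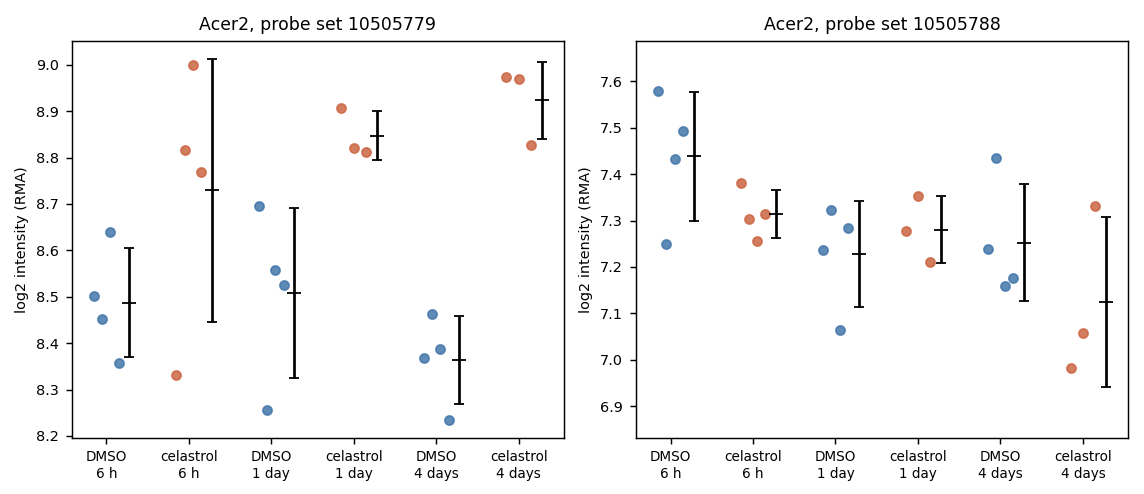
Log2 intensity (vertical axes, RMA) of Acer2 by probe set 10505779 (left) and the dim probe set 10505788 (right) in each of the 22 arrays by treatment and time (horizontal axes); points are arrays, and bars give the group mean and SD. On the left, celastrol arrays lie above all DMSO arrays of their time at 1 day and 4 days, and 1 celastrol array at 6 h, at 8.33, lies below its DMSO group; on the right the groups overlap at 4 days.

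Ordered by mean level, the groups ran celastrol 4 days (8.92 ± 0.083, SD, n = 3), celastrol 1 day (8.85 ± 0.053, n = 3), celastrol 6 h (8.73 ± 0.28, n = 4), DMSO 1 day (8.51 ± 0.18, n = 4), DMSO 6 h (8.49 ± 0.12, n = 4) and DMSO 4 days (8.36 ± 0.095, n = 4). The gap between the lowest celastrol group and the highest DMSO group, 0.22, was larger than the pooled SD of 0.16. The other gaps between neighbours, from 0.02 to 0.12, were smaller than it. The celastrol difference at 4 days was larger than that at 6 h by 0.32 (SE 0.15) and than that at 1 day by 0.22 (SE 0.16). Between 6 h and 4 days the celastrol arrays differed by 0.19 (95% interval -0.04 to 0.42, limma adjusted p = 0.36, 3 of 3 arrays above the 6 h mean), and the DMSO arrays by -0.12 (-0.34 to 0.09, adjusted p = 0.57, 4 of 4 below). Neither change over time passed the test, and both use arrays that also entered the choice of the genes.

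A second probe set named Acer2 (10505788) was dim, at a median percentile of 28.7, and was above the array median in 0 of 22 arrays. Its values at 4 days were 7.24, 7.44, 7.16 and 7.18 with DMSO and 6.98, 7.06 and 7.33 with celastrol, and these groups overlapped. Its differences were -0.12 at 6 h (SE 0.080), 0.05 at 1 day (SE 0.087) and -0.13 at 4 days (SE 0.087), so the values of the first probe set were not repeated in it. Averaging both probe sets gave Acer2 differences of 0.059 at 6 h, 0.20 at 1 day and 0.22 at 4 days, with 0.16 on the average. Which part of the transcript each probe set reads was not examined here.

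The genes with values most like those of Acer2 over all 22 log2 values were Ptgs2 (Pearson r = 0.87), the inducible cyclooxygenase; Osmr (0.85), the oncostatin M receptor subunit; Tgm2 (0.81), a transglutaminase; Slc2a1 (0.79), the glucose transporter of brain vessels; and Lcn2 (0.77), an acute-phase protein. These r include the differences between groups. Over the 9673 genes compared, the median r was 0.047 and the middle 90% ran from -0.32 to 0.41. With the group means removed, the same 5 genes had r of 0.64, 0.73, 0.70, 0.76 and 0.52 with Acer2. By that second measure the closest genes were Rtca (0.80), an RNA cyclase; Abcc4 (0.80), an efflux transporter; Nup133 (0.78), a nuclear pore protein; Wdr45 (0.78), an autophagy protein; and Slc2a1 (0.76). The background for it had a median of 0.064 and a middle 90% from -0.41 to 0.50. Slc2a1 was on both lists. These are the highest of 9673 correlations among arrays that share groups, so they describe likeness only. Acer2 deviated most from its group mean in celastrol arrays of 6 h (SD 0.28, against 0.053 to 0.18 in the other groups). There replicate 1 read 8.33 against a group mean of 8.73, and r without that array was not examined. Removing group means also leaves in any uneven response to celastrol within a group.

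The other ceramidases stayed near their vehicle level. Acer3, the alkaline ceramidase of the endoplasmic reticulum and Golgi, was above the array median in 11 arrays, 5 of them DMSO arrays. At 4 days its log2 intensity was 8.56, 8.74, 8.54 and 8.76 with DMSO and 8.70, 8.85 and 8.56 with celastrol. These groups overlapped, with a difference of 0.05 (SE 0.091). At 6 h the difference for Acer3 was 0.08 (SE 0.084) and at 1 day it was -0.12 (SE 0.091), where celastrol replicate 2 was lowest at 8.31. Without that array the 1 day difference was -0.015. The 3 times thus had no common sign for Acer3, and its average was 0.0058 (SE 0.051).

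Asah1, the acid ceramidase of lysosomes, was bright in all 22 arrays (median percentile 89.7) and varied little, from 11.01 to 11.35 over all arrays. Its values at 4 days were 11.16, 11.08, 11.20 and 11.16 with DMSO and 11.21, 11.08 and 11.13 with celastrol. The differences for Asah1 were 0.06 at 6 h, -0.0059 at 1 day and -0.0076 at 4 days (SE 0.059 to 0.063). Asah2, the neutral ceramidase of the plasma membrane, read 10.38, 10.35, 10.34 and 10.43 with DMSO and 10.32, 10.44 and 10.54 with celastrol at 4 days. Its differences were 0.06 at 6 h, -0.0039 at 1 day and 0.05 at 4 days (SE 0.067 to 0.073), with 5 of 10 celastrol arrays above the DMSO mean. The groups of Asah1 and Asah2 overlapped at every time.

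Of the kinases that phosphorylate sphingosine, Sphk1 was dim. It was above the array median in 0 of 22 arrays, so it was not tested, and its values from 7.65 to 8.08 had a median percentile of 37.3. Its differences from a fit without the filter were -0.03, 0.08 and 0.05 at 6 h, 1 day and 4 days (SE 0.087 to 0.094). Sphk2, the isoform with a nuclear and mitochondrial pool, read 9.19, 9.10, 9.14 and 9.12 with DMSO and 9.19, 9.27, 9.31 and 9.11 with celastrol at 6 h. That was its largest difference, 0.08 (SE 0.051), and the groups overlapped. At 1 day and 4 days the differences for Sphk2 were 0.0040 and 0.016 (SE 0.055 each).

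Sgpl1, the lyase that destroys sphingosine 1-phosphate for good, was slightly lower with celastrol at all 3 times. Its values were 9.59, 9.59, 9.61 and 9.68 with DMSO and 9.60, 9.69, 9.43 and 9.51 with celastrol at 6 h. They were 9.50, 9.60, 9.70 and 9.60 against 9.51, 9.51 and 9.56 at 1 day, and 9.45, 9.61, 9.70 and 9.71 against 9.57, 9.56 and 9.51 at 4 days. The differences in log2 level were -0.060 (SE 0.057), -0.072 (SE 0.061) and -0.069 (SE 0.061), and 1 of 10 celastrol arrays exceeded the mean of its own DMSO group. The groups overlapped each time, and each difference was about as large as its SE. The average of the 3 times was -0.067 (SE 0.035). How many of all genes had so few celastrol arrays above DMSO was not counted.

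Smpd1, the acid sphingomyelinase that releases ceramide in lysosomes, was bright (median percentile 97.2) and varied little, from 12.37 to 12.53. At 4 days it read 12.49, 12.43, 12.43 and 12.42 with DMSO and 12.41, 12.42 and 12.42 with celastrol. All 3 celastrol arrays were below all 4 DMSO arrays, but the nearest of them were all but equal (12.4169 with celastrol, 12.4172 with DMSO). The difference of the means was only -0.030 (SE 0.042). At 1 day the difference had the other sign, 0.051 (SE 0.042), and at 6 h it was -0.015 (SE 0.039).

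Cers2, the ceramide synthase for very long acyl chains that is prominent in myelinating cells, went to different sides of DMSO at different times. At 6 h its log2 intensity was 11.48, 11.48, 11.39 and 11.42 with DMSO and 11.51, 11.47, 11.53 and 11.48 with celastrol. At 1 day it was 11.44, 11.53, 11.54 and 11.42 with DMSO and 11.56, 11.56 and 11.55 with celastrol. At 4 days it was 11.44, 11.37, 11.42 and 11.46 with DMSO and 11.34, 11.38 and 11.41 with celastrol. Every celastrol array lay above the DMSO mean at 6 h and at 1 day, and every one lay below it at 4 days. The groups did not overlap at 1 day and overlapped at the other times. The differences were 0.055 at 6 h (SE 0.036), 0.080 at 1 day (SE 0.039) and -0.044 at 4 days (SE 0.039). Of 4 oligodendrocyte markers measured, 2 were higher with celastrol at 6 h, 4 at 1 day and 1 at 4 days. Of all genes tested, 65.4%, 41.2% and 56.4% were higher at these times. The median differences of the oligodendrocyte markers were 0.010, 0.022 and -0.048. Their part in the values of Cers2 was not tested.

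S1pr1 encodes the sphingosine 1-phosphate receptor of endothelium, astrocytes and lymphocytes, which is also known to act in hypothalamic neurons. At 6 h it read 11.38, 11.44, 11.14 and 11.41 with DMSO and 11.32, 11.07, 11.28 and 11.28 with celastrol. Each group held 1 low array, DMSO replicate 3 and celastrol replicate 2, and all 4 celastrol arrays were below the DMSO mean (difference -0.10, SE 0.059). The difference was -0.048 without that celastrol array and -0.17 without that DMSO array. At 1 day the values were 11.26, 11.29, 11.27 and 11.29 against 11.22, 11.37 and 11.32, and at 4 days they were 11.16, 11.13, 11.16 and 11.25 against 11.25, 11.14 and 11.12. The differences at these later times were 0.025 and -0.0065 (SE 0.064 each), and the groups overlapped at all 3 times.

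**Figure D2:**
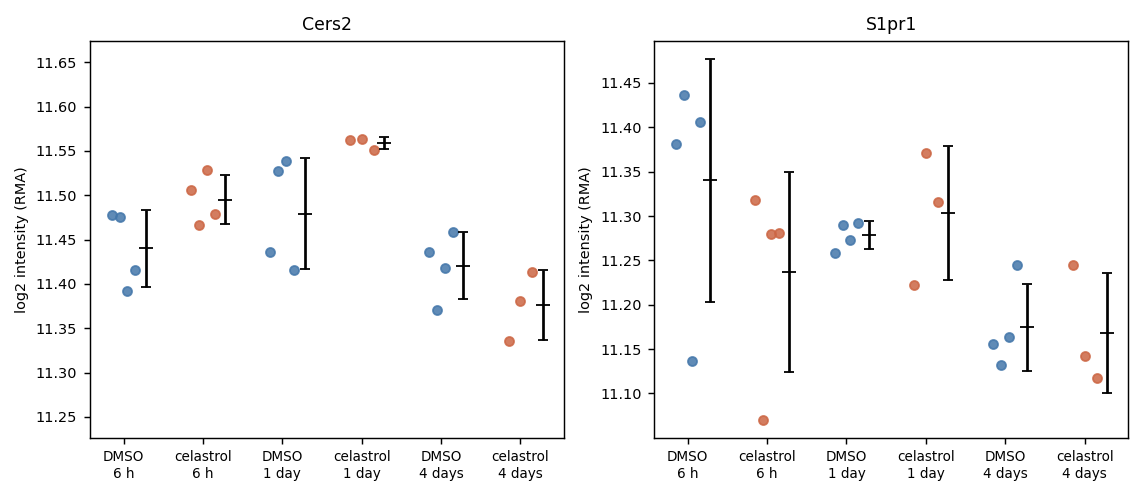
Log2 intensity (vertical axes, RMA) of Cers2 (left) and S1pr1 (right) in each array by treatment and time (horizontal axes); points are arrays, and bars give the group mean and SD. Celastrol arrays of Cers2 are highest at 1 day (11.55 to 11.56) and lowest at 4 days (11.34 to 11.41), and DMSO arrays of S1pr1 are lower at 4 days than at 1 day.

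Counted over the members, celastrol and DMSO arrays did not overlap for 0 of 9 tested members at 6 h, for Acer2 and Cers2 (both higher) at 1 day, and for Acer2 (higher) and Smpd1 (lower) at 4 days. Over all 9880 genes, 2.76% did not overlap at 6 h (2.26% higher, 0.506% lower), 6.17% at 1 day (1.81% higher, 4.36% lower) and 6.33% at 4 days (4.27% higher, 2.05% lower). Since these contrasts served to choose the genes, nothing is read from these counts. The median difference of the 10 members was 0.058 at 6 h, 0.014 at 1 day and 0.0047 at 4 days, beside 0.020, -0.014 and 0.0083 over all genes tested.

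**Figure D3:**
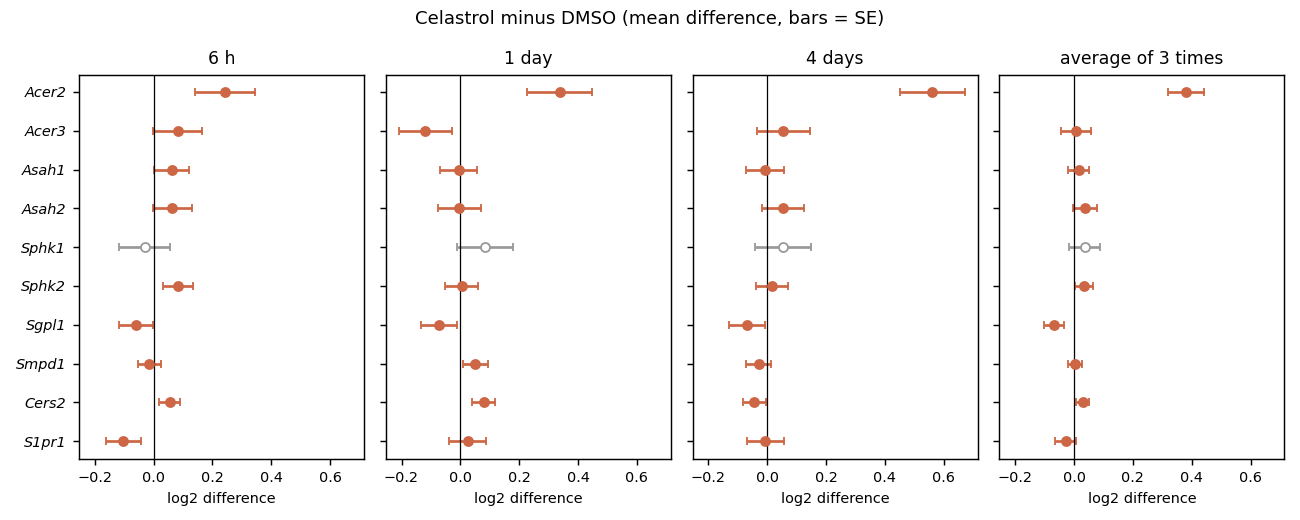
Difference in log2 intensity between celastrol and DMSO (horizontal axis) for each of the 10 genes (vertical axis) at 6 h, 1 day and 4 days and on the average of the 3 times; points are differences of group means, bars their SE from limma, and the open grey points mark Sphk1, which was dim. At the 3 times Acer2 is at 0.24, 0.34 and 0.56, and the other genes lie between -0.12 and 0.08.

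Vehicle alone gave a comparison that did not enter the choice of the genes as a contrast, although its arrays did. Between 6 h, 1 day and 4 days of DMSO, 0 of 9 tested members passed limma's test at an adjusted p under 0.05, where 0% (1 day minus 6 h), 0.253% (4 days minus 6 h) and 0.152% (4 days minus 1 day) of all genes did. At an unadjusted p under 0.05 there were 2, 1 and 0 of the 9 members in those 3 comparisons, beside 1389, 1507 and 1448 of all 9880 genes. S1pr1 differed by -0.17 between 4 days and 6 h of DMSO (95% interval -0.29 to -0.04, adjusted p = 0.21, 4 of 4 arrays below the 6 h mean). Without DMSO 6 h replicate 3, the low array, this was -0.23 and passed (adjusted p = 0.034). It passed in no other setting, and its limma adjusted p was 0.44 without DMSO 4 days replicate 3. Asah2 differed by 0.14 (0.0028 to 0.28) and Smpd1 by -0.08 (-0.16 to -0.0016) between 1 day and 6 h of DMSO, both with an adjusted p of 0.34.

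Among the celastrol arrays alone, 0 of 9 tested members passed between any 2 times, where 0.0202% (1 day minus 6 h), 1.53% (4 days minus 6 h) and 0% (4 days minus 1 day) of all genes did. At an unadjusted p under 0.05 there were 0, 1 and 1 of the 9 members, beside 728, 1778 and 1081 of all 9880 genes. Both were Cers2, whose 3 celastrol arrays at 4 days were below every celastrol array of 1 day and of 6 h. It differed by -0.18 between 4 days and 1 day (95% interval -0.27 to -0.10, adjusted p = 0.11, limma) and by -0.12 between 4 days and 6 h (-0.20 to -0.04, adjusted p = 0.12). With arrays weighted by their quality, the first of these passed (-0.18, adjusted p = 0.035). It passed in no other setting. Its limma adjusted p was 0.51 with only the groups compared and 0.34 without celastrol 4 days replicate 1. The DMSO arrays of Cers2 differed by -0.059 between 4 days and 1 day (-0.13 to 0.02, adjusted p = 0.46). These arrays too had entered the choice of the genes.

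Whether members varied together from array to array was examined from the deviations of the 22 arrays from their group means, a measure that the choice of the genes did not use. None of the 45 pairs passed a permutation test after adjustment (0 by Pearson's r and 0 by Spearman's rho, two-sided; 1 and 3 at an unadjusted p under 0.05). The pair with the smallest p was Asah1 and Sphk1 (r = -0.58, permutation p = 0.0070, adjusted p = 0.32; rho = -0.55, permutation p = 0.016, adjusted p = 0.49). It weakened to r = -0.44 (adjusted p = 0.82) without the 2 arrays farthest from the median, and Sphk1 was dim. Acer2 correlated with the other 9 genes between -0.42 (S1pr1, permutation p = 0.15, adjusted p = 0.72) and 0.21. By Spearman's rho, Acer2 was in both other pairs with an unadjusted permutation p under 0.05, with S1pr1 (rho = -0.51, p = 0.026, adjusted p = 0.50) and with Cers2 (rho = -0.49, p = 0.045, adjusted p = 0.50; r = -0.34). With 22 arrays, correlations of moderate size could not be told from 0.

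A wider list of sphingolipid genes, without the 10 members, set them in their pathway. Of 58 listed genes 55 had a probe set, 41 were tested and 14 were dim. None of the 41 passed limma's test at 6 h, 1 day, 4 days or on the average (0 in each), and 3, 1, 1 and 2 had an unadjusted p under 0.05. Over all genes, 505, 658, 362 and 395 of 9880 had such a p, and 0%, 0%, 0.0506% and 0.0607% passed. Levels were higher with celastrol for 30, 17, 26 and 26 of the 41, beside 65.4%, 41.2%, 56.4% and 56.3% of all genes. The median differences of the list were 0.030, -0.013, 0.011 and 0.013 on the log2 scale.

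Only tested genes of the wider list were ranked by their limma p, so dim genes are left out here. At 6 h the smallest p values of the tested genes belonged to Galc, the lysosomal galactosylceramidase (0.18, SE 0.068, 4 of 4 arrays above the DMSO mean), and Smpd2, a neutral sphingomyelinase (0.19, SE 0.073, 4 of 4). Each had an adjusted p of 0.89. At 1 day they belonged to Smpdl3a, a relative of acid sphingomyelinase (-0.17, SE 0.060, 0 of 3 above, adjusted p = 0.70), and Sgms1, a sphingomyelin synthase (-0.09, 0 of 3, adjusted p = 0.72). At 4 days they belonged to Fa2h, the fatty acid hydroxylase of myelin lipids (-0.16, 0 of 3), and Degs1, the desaturase that completes ceramide (-0.09, 0 of 3), each with an adjusted p of 1.00. On the average, Degs1 (-0.061, SE 0.027, 95% interval -0.12 to -0.0050) and Smpd4, a neutral sphingomyelinase (-0.068), each had 2 of 10 celastrol arrays above DMSO. None of these 7 genes passed over all genes tested.

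By role, on the average of the times, levels were higher for 3 of 3 tested genes of serine palmitoyltransferase and its regulators, 4 of 6 of de novo ceramide synthesis and 2 of 6 of sphingomyelin turnover. They were higher for 4 of 4 genes of ceramide transfer and phosphorylation, 6 of 13 of glycosphingolipids and 6 of 7 of sphingosine 1-phosphate phosphatases, transport and breakdown. Of the receptors not among the members, 1 of 2 was higher. The averages of the 41 tested genes ran from -0.068 (Smpd4) to 0.047 (Galc) and their 95% intervals reached from -0.13 to 0.13. Dim genes included Acer1, the alkaline ceramidase of skin, and Degs2, which had the lowest average of the whole list (-0.13). In the limma fit without the filter, this average of Degs2 had an SE of 0.043 and an unadjusted p of 0.0070, with 1 of 10 celastrol arrays above DMSO. At 4 days Degs2 was at -0.22 (SE 0.076, 0 of 3 above, unadjusted p = 0.0083). No gene of the list passed in that fit, where the lowest adjusted p was 0.93 on the average and 0.90 at 4 days.

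**Figure D4:**
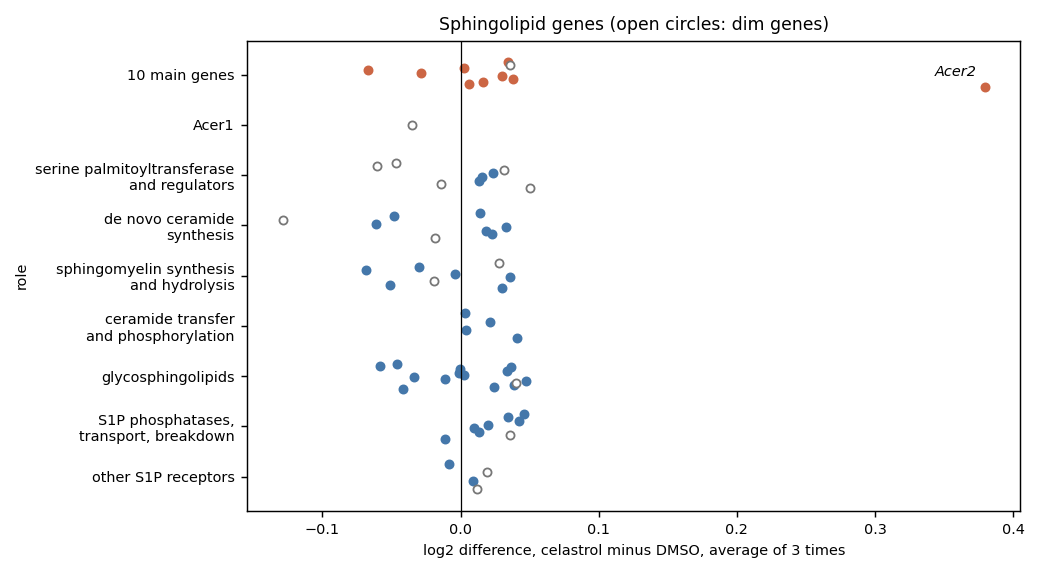
Average log2 difference between celastrol and DMSO over 3 times (horizontal axis) for the 10 members (top, orange) and the wider sphingolipid list by role (vertical axis); each point is a gene, and open circles are dim genes. Acer2 is at 0.38, and the 41 tested genes of the wider list (blue) lie between -0.068 and 0.047.

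The arrays were much alike. Array medians lay between 8.58 and 8.66 after RMA, which makes array distributions alike. The mean correlation with the other arrays of a group lay between 0.994 and 0.998. The mean of 6 markers of the hypothalamus lay between 11.2 and 11.7. With celastrol, 1 of the 6 was higher at 6 h, 1 at 1 day and 4 at 4 days. Their median differences were -0.12, -0.085 and 0.046. Of all genes tested, 65.4%, 41.2% and 56.4% were higher at these times. Pomc, among them, was near the array median (mean 8.70, above it in 16 of 22 arrays). Between celastrol and DMSO, 0 of the tested marker genes passed, where 0% (6 h), 0% (1 day) and 0.0506% (4 days) of all genes did. Only 3 of 5 microglial, 1 of 6 choroid plexus and 0 blood markers were bright enough to be tested. At 4 days, 4 of 5 microglial markers were higher with celastrol (mean level 8.85 to 8.89, against 8.70 to 8.87 in DMSO). So were 5 of 6 endothelial markers (9.08 to 9.15 against 8.96 to 9.18), 3 of 5 astrocyte markers and 56.4% of all genes tested. At 1 day, 2 of 5 microglial, 1 of 6 endothelial and 3 of 5 astrocyte markers were higher, beside 41.2% of all genes tested. At 6 h these were 2 of 5, 4 of 6 and 4 of 5, beside 65.4%. Of 4 neuronal markers, 3 were higher at 6 h, 2 at 1 day and 1 at 4 days. Of 4 oligodendrocyte markers, 2, 4 and 1 were higher at these times. The microglial markers P2ry12 and Aif1 and the endothelial marker Kdr were dim, above the array median in 0 of 22 arrays. The mean of 5 pituitary markers ranged from 7.18 to 9.63 in celastrol arrays and from 7.01 to 7.81 in DMSO arrays at 4 days, and from 7.11 to 7.85 against 7.15 to 9.997 at 6 h. The part of these markers in the values of Acer2 was not tested. Without the 2 least typical arrays, celastrol 1 day replicate 2 and DMSO 1 day replicate 1, the difference for Acer2 was 0.41 at 1 day and 0.40 on the average.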

How the data were processed

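RNA from the hypothalamus of 22 samples was biotin-labelled for whole-transcript Affymetrix arrays, per the labels' protocols. The deposited log2 intensities had been made with RMA, per the submitters' processing notes; no version of it is named in the notes. RMA corrects background, makes array distributions alike and summarises probes into probe sets, so a shift of all genes cannot be seen.

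Platform annotation gave 20228 of 23492 probe sets 1 symbol, 1399 several and 1865 none. The probe set with the highest mean stood for a gene. A total of 9880 of 18704 genes were above the array median in at least 3 arrays and were tested; 8824 were dim. One model with 6 group means was fitted over all 22 arrays (limma 3.58.1, functions lmFit and eBayes, run in R 4.3.3; 16 residual degrees of freedom; two-sided), and p-values were adjusted by Benjamini-Hochberg over all 9880 genes at 0.05. The number of arrays limits the precision, and p-values measure the spread between these samples. Pairs of members were tested with 100000 permutations within groups. The steps were tested on simulated data.

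Named were all 10 members and, in each comparison, the 2 tested genes of the wider list with the smallest p. Also named were the 5 genes most like Acer2 by each measure, leaving out predicted genes and non-coding RNAs. Acer1 and Degs2 were named after their values were seen. The members, lists and tests were chosen with earlier results of these data known. Promoter windows of 8 members were found in a RefSeq table; Asah1 and S1pr1 were not matched. Of the wider list, 3 genes were not analysed here. Deviations of same-numbered samples of both treatments had r from -0.24 to 0.41, highest for replicate 3 at 6 h. Samples of different numbers were not compared in this way. As these r had no common sign, the numbers were not taken as pairs. Alternatives were other filters, normalizations, variance models and array weights, averaging the probe sets of a gene, fitting the compared groups alone, a block on the replicate number, and leaving out each array in turn.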

Additional observations from a re-analysis of the deposited data

Results flagged for a closer look

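S1pr1 in celastrol 6 h replicate 2 read 11.07, far below the next array of its group at 11.28 (gap over range 0.844, above the critical value of 0.829 for 4 arrays). It was the only one of 40 member groups of 4 arrays with such an array, and chance gives about 1 in 20.

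For Cers2, every celastrol array was above the DMSO mean at 6 h and 1 day and below it at 4 days. Its celastrol difference at 4 days was -0.0989 against that at 6 h (SE 0.054) and -0.124 against that at 1 day (SE 0.056) on the log2 scale. The differences between times were not tested, because the members were chosen with these contrasts known.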

How the results depend on the processing

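Over 35 settings, 460 of 465 values of the main results stayed within the replicate SD or, for counts, within 1.5 times. Of 3384 values of single genes and pairs, 3381 kept their side of the threshold or, with no test, stayed within that SD. Acer2 turned sign between celastrol and DMSO in 0 of 131 values, and the other members in 53 of 1179, all with a main difference of at most 0.054. Many settings, such as another filter or an array left out at another time, cannot move such a difference. The dim Acer2 probe set on its own was not a setting. Its differences had the other sign at 6 h (-0.12), at 4 days (-0.13) and on the average (-0.067), and the same sign at 1 day (0.05). Members turned sign between times in 85 of 1980 values and pairs in 34 of 225, none of them called. With the mean of both Acer2 probe sets, the Acer2 difference moved to 0.059 at 6 h, 0.22 at 4 days and 0.16 on the average. Its celastrol arrays then differed by 0.0019 between 4 days and 6 h, since the 2 probe sets went opposite ways. From 6 h to 4 days of celastrol, the dim probe set fell from a mean of 7.31 to 7.12. The brighter one rose from 8.73 to 8.92. With array weights, 1 member (Cers2, -0.18) passed between 4 days and 1 day of celastrol. Leaving out arrays, 0 to 1 members passed between 4 days and 6 h of DMSO, the 1 being S1pr1 (-0.23) without DMSO 6 h replicate 3; the cause was not tested. With the replicate number as a block, Acer2 was at 0.24, 0.32, 0.54 and 0.37 (6 h, 1 day, 4 days, average), 0 members, 0 genes of the wider list and 0 pairs passed, and no call changed. The setting without the 2 least typical arrays was chosen after seeing the data. No average was run with only the groups compared. Dim genes near background, such as Sphk1, may hide changes.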
